A study of Mus musculus with 6 samples.

Results

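Caveolae are small flask-shaped pits of the plasma membrane, and the genes described here encode their coat, the proteins that shape and cut their neck, the diaphragm across their opening, and a lipid transporter that opposes vesicle traffic. The 8 genes were Plvap, Cav1, Cav2, Ehd2, Pacsin2, Pacsin3, Dnm2 and Mfsd2a, chosen by symbol among the 23793 rows of the deposited expression table. Each had 1 row of its own, 7 had a mean of at least 1 FPKM (fragments normalised for transcript length and library size) and were tested, and Mfsd2a was below that level.

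Expression was measured by RNA sequencing of endothelial cells that were sorted by fluorescence from mouse lungs at postnatal day 7, in mice of mixed strain background. There were 3 control libraries and 3 mutant libraries, with replicates A, B and C in each group, and the control and mutant library of a letter are called a pair. The sample titles join the names Vegfa and Shh, and the series title speaks of Vegfa made by the epithelium; the labels give neither the alleles nor what the control lungs carry. As background, Shh is expressed by the epithelium of the developing lung. Vegfa itself was at 65.1 to 99.2 FPKM over the 6 endothelial libraries, which does not check a genotype placed in the epithelium. The labels do not say whether each library came from its own animal, so a p-value measures the spread between these samples. The total of sequenced fragments is unknown; spacing of the lowest values gave depths of 0.897 to 1.49 relative to control A. Xist, which is transcribed from the inactive X chromosome, was under 0.1 FPKM in both libraries of pair C, whereas the remaining 4 spanned 33.3 to 57.9. The endothelial label was checked on 7 markers (Pecam1, Cdh5, Tek, Tie1, Esam, Emcn and Erg), whose summed level was 3281 to 3856 FPKM (control) and 3057 to 3625 FPKM (mutant).

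In endothelium, caveolin-1 forms the coat of the pit and caveolin-2 joins it in mixed oligomers, while cavins cover the coat from the cytosol. EHD2 is an ATPase that sits at the neck and holds the pit at the surface, PACSIN proteins bend the membrane there, and dynamin-2 is the GTPase that cuts vesicles free. PLVAP builds the thin diaphragms across caveolae and fenestrae. Lung capillaries are known for their density of caveolae, which carry albumin and other cargo across the wall. Mfsd2a is known from mouse brain vessels, where it carries lysophospholipids and keeps caveolar transcytosis low.

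Cav2 and Cav1 are neighbours on mouse chromosome 6 and are read in the same direction. Cav2 spans 17281185 to 17289130 and Cav1 spans 17306335 to 17341328 (RefSeq, build GRCm38, the same assembly as the mm10 named by the labels), so their first start sites lie 25.1 kb apart. The windows from 250 bases before to 50 after the start sites are shown because these neighbours had different profiles across the libraries. That of Dnm2 is shown because it was the tested gene whose groups did not overlap, as held for 13.7% of all tested rows in either direction. Capitals mark GGGCGG, the GC box, or its reverse complement.
Cav2, chr6:17280935-17281234, plus strand: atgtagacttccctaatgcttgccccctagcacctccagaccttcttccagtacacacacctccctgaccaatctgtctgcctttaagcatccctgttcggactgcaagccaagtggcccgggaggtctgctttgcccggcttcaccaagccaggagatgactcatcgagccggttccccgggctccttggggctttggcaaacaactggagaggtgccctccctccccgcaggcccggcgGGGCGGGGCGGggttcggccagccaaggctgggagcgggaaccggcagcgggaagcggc
Cav1 first start, chr6:17306085-17306384, plus strand: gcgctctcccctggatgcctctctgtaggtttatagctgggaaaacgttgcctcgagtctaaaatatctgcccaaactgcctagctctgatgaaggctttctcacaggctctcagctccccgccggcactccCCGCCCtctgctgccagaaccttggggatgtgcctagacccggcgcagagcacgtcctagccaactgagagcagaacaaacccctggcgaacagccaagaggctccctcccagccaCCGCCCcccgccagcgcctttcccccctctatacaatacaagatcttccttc
Cav1 second start, chr6:17307390-17307689, plus strand: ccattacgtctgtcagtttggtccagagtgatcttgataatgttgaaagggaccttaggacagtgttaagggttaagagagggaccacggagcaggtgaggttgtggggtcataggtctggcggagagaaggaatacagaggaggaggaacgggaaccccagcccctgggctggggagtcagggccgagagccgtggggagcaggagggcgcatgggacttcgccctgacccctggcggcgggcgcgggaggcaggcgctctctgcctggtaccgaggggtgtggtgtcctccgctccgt
Dnm2, chr9:21424658-21424957, plus strand: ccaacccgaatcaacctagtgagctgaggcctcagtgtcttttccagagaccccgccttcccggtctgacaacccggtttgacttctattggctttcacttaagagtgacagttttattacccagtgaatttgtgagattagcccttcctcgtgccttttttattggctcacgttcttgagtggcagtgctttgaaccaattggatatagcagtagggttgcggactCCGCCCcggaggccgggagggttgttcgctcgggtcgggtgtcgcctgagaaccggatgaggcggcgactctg
The Cav2 window held 2 GC boxes that share 1 base, the first Cav1 window held 2 and the second 0, and Dnm2 held 1. The GC box was found on either strand in 35.9% of 27025 promoter windows of that length. The letters of the TATA box (TATAAA, either strand) were found in the first Cav1 window only, 1 time, against 14.2% of all windows. That match was the reverse complement and lay near the upstream end of the window, far from the start site. The CCAAT box (CCAAT, either strand) was found 4 times in the Dnm2 window, 1 time in that of Cav2 and not in either Cav1 window, against 37.9% of all windows with at least 1. In the Dnm2 window, 2 of the matches lie on opposite strands and share bases. These are matches of letters and not measured binding. Windows were found for 7 of the 8 genes, the exception being Plvap.

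At baseline in control cells, Cav1 and Plvap stood far above the others. In FPKM, which is per length, Cav1 averaged 860.5 ± 95.4 (SD, n = 3) and Plvap 797 ± 119, and the ranges of these neighbours over the 3 libraries overlapped. By the mean over all 6 libraries, Plvap stood above 99.79% and Cav1 above 99.75% of the 11693 tested rows. Ehd2 followed at 206 ± 14.4 FPKM, Cav2 at 135 ± 32.3, Dnm2 at 72.5 ± 1.87, Pacsin2 at 40.0 ± 1.38 and Pacsin3 at 2.17 ± 0.912. From Plvap downward, the ranges of neighbours in this order did not overlap. In mutant cells the order was the same except that the means of Plvap (1198 ± 496 FPKM) and Cav1 (979.6 ± 320) were in the reverse order, and the ranges of this top pair again overlapped.

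**Figure D1:**
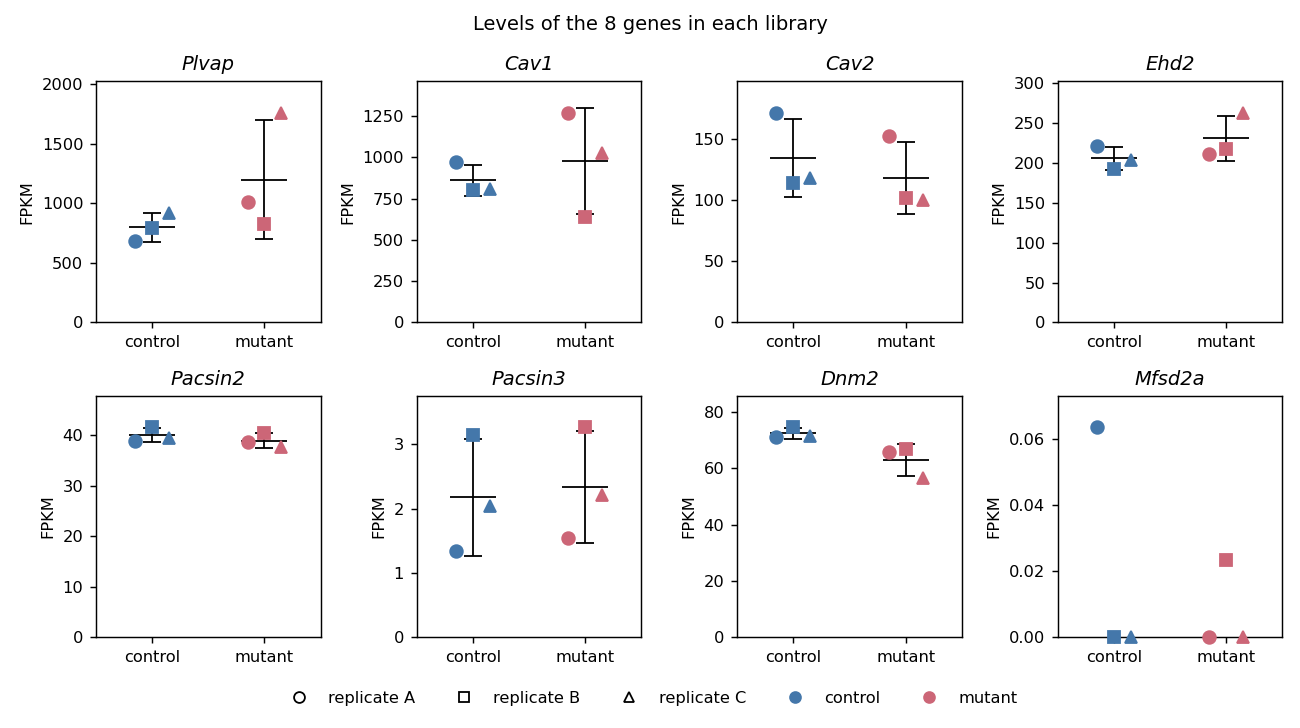
FPKM of each gene (linear axis from 0) in the 6 libraries, with the marker shape for the replicate letter, the long bar for the group mean and the whiskers for 1 SD (n = 3; none is drawn for Mfsd2a). Plvap stood at 1761 FPKM in mutant C, above every other library, while the mutant libraries of Dnm2 all lay below its control libraries.

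None of the 7 tested genes differed between mutant and control at an adjusted p under 0.05 (limma on log2(FPKM + 1), Benjamini-Hochberg adjustment over all 11693 rows). At an unadjusted p under 0.05 the count was also 0 of 7, with or without the pair as a block. Across all tested rows, 0.137% were called, of which 16 rows were lower and 0 higher in the mutant. A share of 8.1% of the rows fell under the unadjusted threshold, and 12.3% did with the pair as a block, 6.88% with a lower level in the mutant. Of the 7 genes, 3 had a lower and 4 a higher mean in the mutant, with a median log2 fold change of 0.08 against 0.02 over all tested rows. The mutant libraries lay entirely below the controls for 1 gene, Dnm2, against 6.57% of all tested rows. They lay entirely above the controls for 0 of 7, against 7.12% of all tested rows. In either direction, the groups did not overlap for 1 of the 7, against 13.7% of all tested rows.

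Plvap, the diaphragm protein (chromosome 8, 71497753 to 71511806), had the largest estimate of the 7, and it did not pass. It was at 680 FPKM in control A, 794 in control B and 918 in control C, and at 1011 in mutant A, 823 in mutant B and 1761 in mutant C. Mutant C was the highest library, while mutant B lay within the control range, so the groups overlapped. The log2 fold change was 0.52 ± 0.30 (SE), with a 95% interval of -0.19 to 1.23 and an adjusted p of 0.714 in limma. Within pairs A, B and C the log2 differences were 0.57, 0.05 and 0.94, higher in the mutant in 3 of 3 pairs. Without mutant C the estimate was 0.21, and without mutant B it was 0.75. The interval, from the fit without a block, includes both a small decrease and a rise of more than 1 log2 unit. With the pair as a block the SE was 0.22 and the limma adjusted p 0.427.

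Plvap is also known as a marker of general capillary cells, so 7 other markers of that type were set beside it. Of these, 0 were called, 4 had a lower and 3 a higher mean in the mutant, and their summed level was 1605 to 1941 FPKM (control) and 1670 to 1881 FPKM (mutant). In mutant C these markers differed among themselves. Aplnr, the apelin receptor, was highest there, at 499 FPKM against 299.9 to 391 in the other libraries. Sema3c (61.3 FPKM), Hilpda (29.8 FPKM), Ntrk2 (7.72 FPKM) and Kit (146 FPKM) were lowest there, while Cd93 and Gpihbp1 were at neither end. The 7 markers of the other capillary type, which carries high Car4, were all lower in mean in the mutant, and 1 (Emp2) was called (limma adjusted p = 0.0267, and 0.0513 with the pair as a block, where none was called). Their summed level was 802 to 945 FPKM (control) against 173 to 340 in mutant libraries. Of these markers, Apln went the other way in mutant C, at 243 FPKM against 82.5 to 169 FPKM in controls. It was at 25.3 FPKM in mutant A and 41.0 FPKM in mutant B. The mutant sum of 340 FPKM, the highest, was that of mutant C. In bulk samples, fewer cells of a type and less RNA per cell cannot be told apart, and the part of cell makeup in the Plvap values was not tested. The 6 venous markers, of which 5 were tested and 0 called, summed to 436 to 491 FPKM (control) and 397 to 457 FPKM (mutant).

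Among the 10961 tested rows with a symbol of their own, those with the profile most like Plvap over the 6 libraries were Chst15, Fam101b and Trim47. Chst15 is a sulfotransferase of chondroitin chains and Trim47 a member of the TRIM family of ubiquitin ligases. The root mean square difference of the centred log2 profiles was 0.09 for Chst15, 0.09 for Fam101b and 0.11 for Trim47, against an SD of 0.48 for Plvap itself. All 3 shared the maximum in mutant C: Chst15 was at 46.5 FPKM there and at 19.1 to 31.0 FPKM elsewhere. These genes were picked out of all rows for their likeness, so the likeness is a description.

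**Figure D2:**
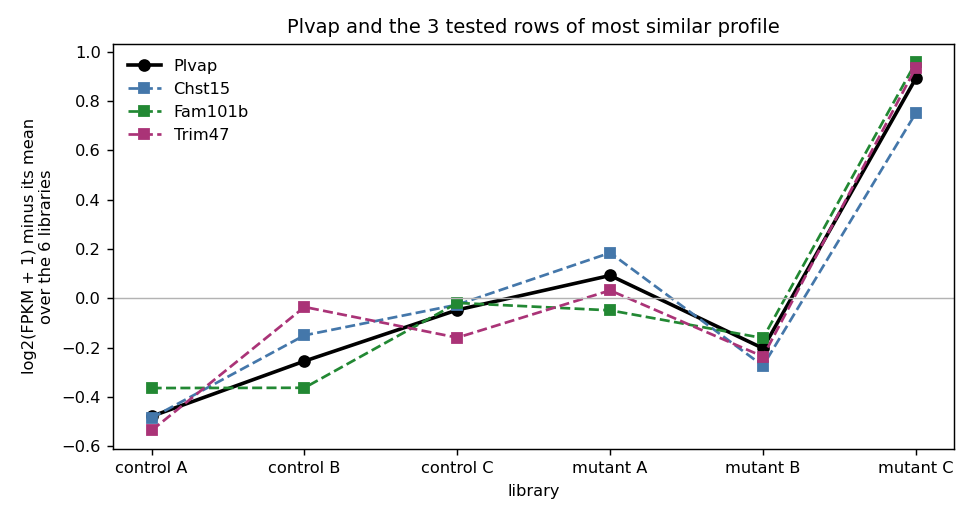
Centred log2(FPKM + 1) of Plvap (solid line) and of the 3 rows of most similar profile (dashed lines) in the 6 libraries named on the horizontal axis. All 4 lines are lowest or near lowest in control A and peak in mutant C; lines join libraries only to guide the eye.

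Cav1, the coat protein without which caveolae do not form in endothelium, was high in every library. Controls A, B and C read 971, 803 and 808 FPKM, against 1272, 638 and 1029 for mutants A, B and C. The mutant group held both the highest and the lowest library, and its range enclosed that of the controls. The log2 fold change was 0.14 ± 0.27 (95% interval -0.50 to 0.77, limma adjusted p = 0.923), with 0.39, -0.33 and 0.35 within pairs A, B and C. Its sign was not stable: the estimate was -0.081 without mutant A and -0.012 after quantile normalization. The 3 libraries with the highest Cav1 were also those with the highest summed pan-endothelial markers (3856 FPKM in control A, 3625 in mutant A and 3599 in mutant C), and mutant B was lowest in both measures. With the libraries rescaled to that sum, an alternative chosen after the data were seen, the log2 fold change of Cav1 was 0.16.

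Cav1 is also made by alveolar type 1 cells and by mesenchymal cells, so their markers are given here. The 8 type 1 markers, of which 6 were tested and 0 called, summed to 167 to 193 FPKM (control) and 61.4 to 139 FPKM (mutant). Of the 6 tested, 4 had a lower and 2 a higher mean in the mutant. Hopx and Clic5 made up most of the sum. Hopx was at 57.9 to 60.8 FPKM (control) and 5.87 to 21.6 FPKM (mutant). Clic5 was at 93.5 to 107 FPKM (control) and 37.1 to 99.0 FPKM (mutant), so its groups overlapped. The defining marker Ager stood at 9.26 to 15.4 FPKM (control) and 9.48 to 13.7 FPKM (mutant), and Aqp5 at 0.307 to 1.46 FPKM over the 6 libraries. The 11 mesenchymal markers, with 0 called, summed to 394 to 1291 FPKM (control) and 287 to 1198 FPKM (mutant). Their sum was lowest in control A and mutant A, at 394 and 287 FPKM. The part of either cell type in the Cav1 values was not tested. The rows closest in profile to Cav1 were Toporsos, Dtx1 and the splicing factor Srsf5, at root mean square differences of 0.11, 0.12 and 0.12 (log2) against an SD of 0.35 for Cav1.

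Cav2, the partner of caveolin-1, was slightly lower in the mutant library of every pair. Controls A, B and C read 172, 114 and 118 FPKM, against 152, 102 and 100.4 for mutants A, B and C. Pair A was high in both groups, so the groups overlapped although each mutant library was below the control of its letter. The log2 fold change was -0.19 ± 0.22 (95% interval -0.72 to 0.34, limma adjusted p = 0.869), and with the pair as a block its SE was 0.09 and the adjusted p 0.464. The pairs gave -0.17, -0.17 and -0.23. Without control A the estimate was -0.0033, and without mutant A it was -0.39. In the authors' deposited table, Cav2 had a log2 fold change of -0.19 and an unadjusted p of 0.0121. By that threshold, 7.53% of the rows with a p in the authors' deposited table fell under 0.05, and Cav2 was the only member among the 7 with a value that did. The column header does not name the authors' test, so their p is not a like value to those of limma. The unadjusted limma p of Cav2 was 0.424, and 0.0873 with the pair as a block.

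The level of Cav2 relative to Cav1 within a library does not depend on how the library was scaled. The ratio was 0.177, 0.142 and 0.146 in controls A, B and C, and 0.120, 0.160 and 0.0976 in mutants A, B and C. It was lower in the mutant of pairs A and C and higher in that of pair B. The difference of the mean log2 ratio was -0.33 (control -2.69 ± 0.17, mutant -3.02 ± 0.36, SD, n = 3), with p = 0.3 in a two-sided exact permutation test whose smallest possible p is 0.1. It was -0.16 without mutant C and -0.51 without mutant B. The same ratio of Plvap to Cav1 was 0.701, 0.989 and 1.14 in the controls and 0.795, 1.29 and 1.71 in the mutants. It was higher in the mutant in 3 of 3 pairs, by 0.18, 0.39 and 0.59 on the log2 scale, yet the groups overlapped. The mean difference was 0.39 (log2) with p = 0.4 in the same exact test, and 0.13 without mutant C.

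**Figure D3:**
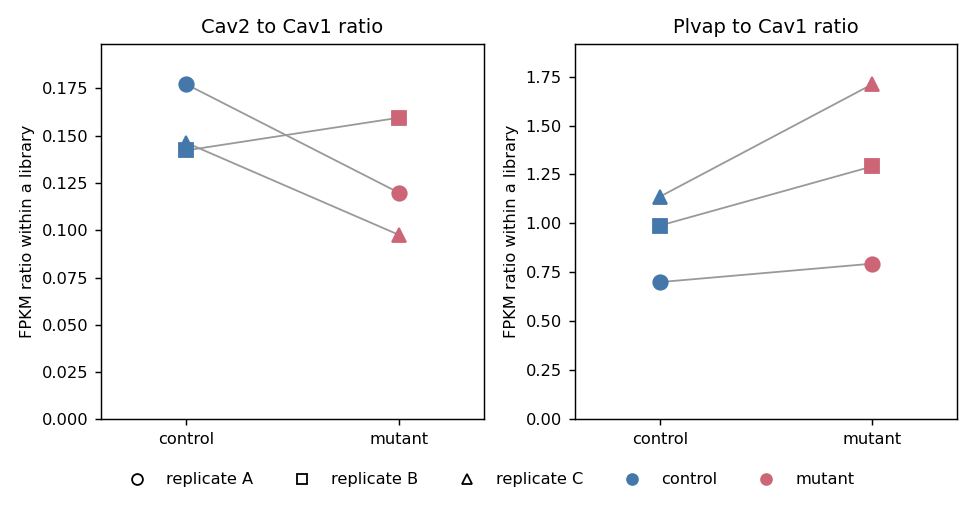
FPKM of Cav2 divided by that of Cav1 (left) and FPKM of Plvap divided by that of Cav1 (right) within each library, on linear axes from 0, with grey lines joining the libraries of a pair. Plvap over Cav1 is higher in the mutant of each pair, from 1.14 to 1.71 in pair C, while Cav2 over Cav1 is lower in the mutant of pairs A and C and higher in that of pair B.

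Ehd2, the ATPase of the caveolar neck (chromosome 7, 15946963 to 15967535), varied little. Controls A, B and C read 221, 193 and 204 FPKM, against 211, 218 and 263 for mutants A, B and C. Mutant C was again the highest library, and the other mutant libraries lay within the control range. The log2 fold change was 0.16 ± 0.13 (95% interval -0.14 to 0.46, limma adjusted p = 0.795), and without mutant C it was 0.06.

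Pacsin2 and Pacsin3 encode membrane-bending proteins of 1 family with different levels. Pacsin2 (chromosome 15, 83375607 to 83464610) read 39.0, 41.6 and 39.5 FPKM in controls A to C, against 38.7, 40.5 and 37.6 for mutants A, B and C. Its 6 libraries spanned a range of 37.6 to 41.6 FPKM, and its log2 fold change of -0.04 ± 0.08 had the narrowest interval of the 7, from -0.24 to 0.16 (limma adjusted p = 0.929). Pacsin3 (chromosome 2, 91255875 to 91264680) read 1.34, 3.15 and 2.04 FPKM in controls A to C, against 1.54, 3.26 and 2.204 for mutants A, B and C. Its levels followed the letter, B above C above A in each group, and the mutant was higher in 3 of 3 pairs by 0.12, 0.04 and 0.08 (log2). The log2 fold change was 0.08 ± 0.28 (limma adjusted p = 0.958), and its sign turned to -0.12 without control A and to -0.11 without mutant B. With the pair as a block its SE was 0.13 and the limma adjusted p 0.823. The summed mesenchymal markers were also lowest in pair A, at 394 and 287 FPKM, and stood at 1291 and 1198 FPKM in pair B; their part in the Pacsin3 values was not tested. An exon of Pacsin3 overlaps the non-coding gene Gm17281 on the other strand in the GENCODE annotation, and the sources used here do not give the strand setting of the counting.

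Dnm2, the GTPase that cuts caveolae and clathrin-coated pits from the membrane (chromosome 9, 21424908 to 21507759), was the tested gene with the lowest p of the 7. Controls A, B and C read 71.1, 74.6 and 71.7 FPKM, against 65.7, 66.9 and 56.6 for mutants A, B and C. The 3 mutant libraries lay below the 3 controls, with mutant C lowest. The log2 fold change was -0.20 ± 0.10 (95% interval -0.44 to 0.04), and it did not pass (limma adjusted p = 0.667). The pairs gave -0.11, -0.15 and -0.34, and without mutant C the estimate was -0.13. Its exons overlap those of Tmed1 on the opposite strand. As the strand setting of the counting is not given, how fragments there were assigned is unknown.

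**Figure D4:**
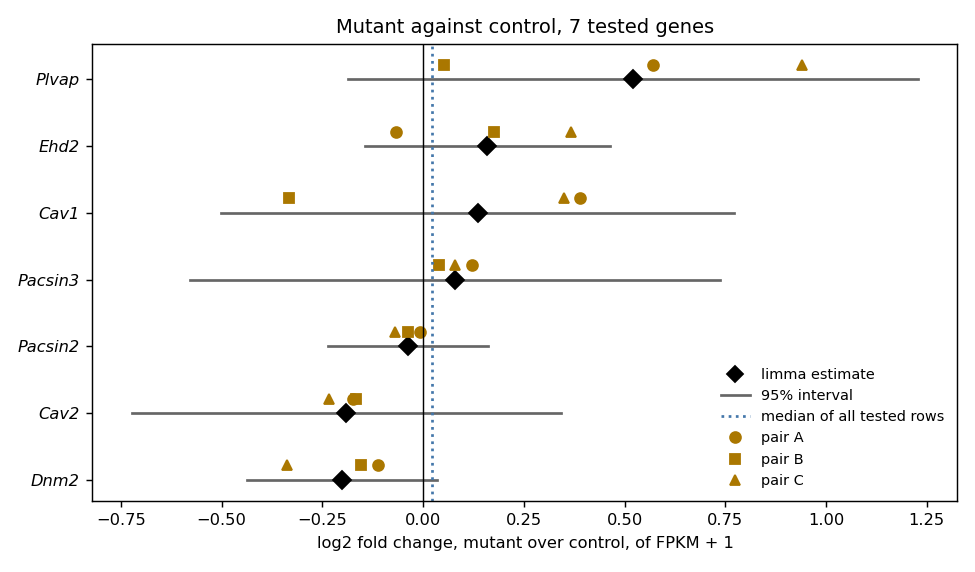
Log2 fold change of FPKM + 1, mutant over control, for the 7 tested genes: diamonds are limma estimates, grey lines their unadjusted 95% intervals, and ochre symbols the differences within pairs A, B and C. The intervals are from the fit without the pair as a block, and each includes 0. Cav2, Pacsin2 and Dnm2 lie below 0 in all 3 pairs, Pacsin3 and Plvap above 0.

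Small differences of constant sign were common here. Of the 7 tested genes, 3 were lower in the mutant in all 3 pairs (Cav2, Pacsin2 and Dnm2) and 2 were higher in all 3 (Plvap and Pacsin3). Across all tested rows, 17.2% were lower and 19.6% higher in every pair, 36.8% in all. With the pair as a block, 0.0513% of all tested rows were called and 0 of these 7, and the smallest adjusted p of the 7 was 0.427, for Plvap. The 5 genes therefore shared a sign over the pairs without any of them being called in limma, with or without the block.

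For most of these genes the letter of the replicate held a larger share of the spread than the group did. There are more letters than groups, so values unrelated to either would also give the letters the larger share on average. The shares are therefore not on equal terms and are a description. The letters held 98.2% of the sum of squares of log2(FPKM + 1) of Pacsin3, 88.8% of that of Cav2, 74.1% for Pacsin2 and 67.7% for Cav1. The group held 1.49%, 11.0%, 18.1% and 4.62% in the same order. For Plvap the letters held 47.0% and the group 35.6%. For Dnm2 the group held the larger share, at 62.1% against 23.3% for the letters, and for Ehd2 the shares were 32.4% and 27.4%. The medians over all tested rows were 47.8% for letters and 15.7% for the group. The letters also differ in other ways: pair C had Xist under 0.1 FPKM, and the description labels of pair A carry another prefix. Each of these marks 1 letter, so neither can be told apart from any other difference of that letter. Within pairs B and C, which share a prefix, the log2 fold changes were 0.50 for Plvap, 0.01 for Cav1, -0.20 for Cav2, 0.27 for Ehd2 and -0.25 for Dnm2, with limma adjusted p of 0.56 to 0.994. Pair A holds 1 library per group, so it gives the values above and no test.

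**Figure D5:**
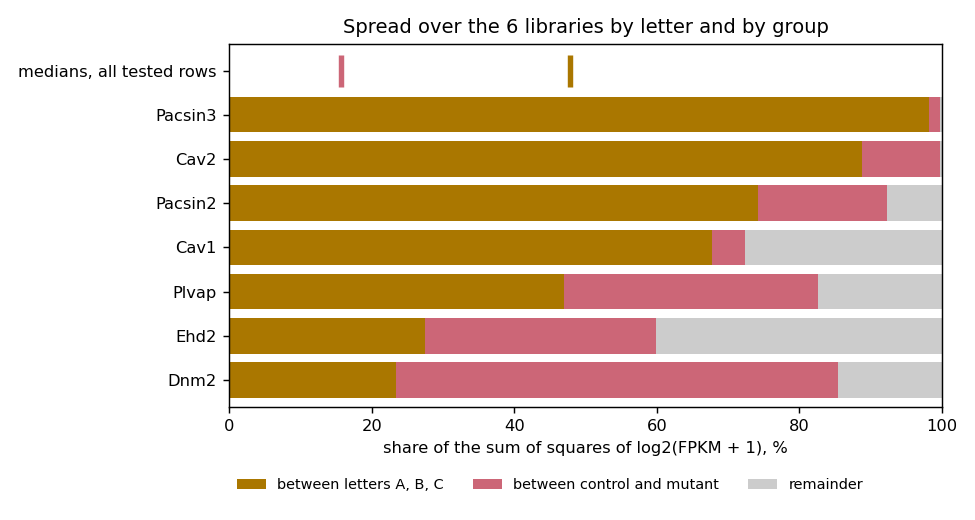
Share (%) of the sum of squares of log2(FPKM + 1) over the 6 libraries that lies between the letters A, B and C (ochre), between control and mutant (rose) and in the remainder (grey) for the 7 tested genes. Vertical ticks in the top row mark the medians of all tested rows, 47.8% for letters and 15.7% for group; Pacsin3 and Cav2 have the largest letter shares and Dnm2 the largest group share.

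Mfsd2a, the lysophospholipid transporter (chromosome 4, 122946850 to 122961194), was close to undetected in this endothelium. Control A held 0.0636 FPKM and mutant B 0.0235 FPKM, and the remaining 4 libraries were listed at 0. After the relative depth of the libraries was taken into account, the first of these values was 1.996 times the second. No fold change is given at this level, and an exact 0 in a table of this kind can also be a failed estimate. Its profile is nearly flat on the log2(FPKM + 1) scale (SD 0.04), so the rows closest to it, Ocrl, Slc39a9 and Ddx60, are those that hardly varied. Its paralogue Mfsd2b, a transporter of sphingosine 1-phosphate known from blood cells, was at 0.20 to 0.80 FPKM.

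The cavins and the paralogues of these genes likewise held no call. Of the 11 genes in this list, 9 were tested, 0 were called in either direction, and the median log2 fold change was 0.01. Cavin-1, which coats caveolae and is listed under its older symbol Ptrf, read 405, 410.2 and 362 FPKM in controls A to C, against 471, 405 and 557 for mutants A, B and C (0.27 ± 0.15, limma adjusted p = 0.7095). Cavin-3, listed as Prkcdbp, reached 178 FPKM in mutant C, whereas the remaining 5 libraries spanned 47.7 to 62.6. Its log2 fold change of 0.57 ± 0.46 (limma adjusted p = 0.797) was -0.01 without that library. Without that library Ptrf was at 0.16. Mutant C was thus the highest library for Plvap, Ehd2, Ptrf and Prkcdbp. Cavin-2, listed as Sdpr, spanned 308 to 381 FPKM over the 6 libraries.

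Of the paralogues, Ehd1 and Ehd4 were well expressed, with control means of 109.8 ± 6.02 and 241 ± 50.3 FPKM, and Ehd3 stood at 5.03 ± 1.33 FPKM. The muscle and nerve members were low: Cav3 was at most 0.479 FPKM and Pacsin1 at most 0.0491 FPKM, and neither was tested. Dnm1, the dynamin of neurons, was at 1.14 ± 0.709 FPKM (control) and 1.44 ± 0.869 FPKM (mutant), and like Pacsin3 it was highest in pair B of each group. Its log2 fold change was 0.18 ± 0.35 (limma adjusted p = 0.919), with -0.08 to 0.45 when single libraries were left out.

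Proteins that reside in or beside caveolae were measured for 9 genes, with 0 called and a median log2 fold change of -0.14. The 3 of lowest p were Flot2, a flotillin of membrane microdomains (0.27 ± 0.17), Nos3, the nitric oxide synthase that caveolin-1 binds (-0.25 ± 0.22), and the kinase Prkca (-0.26 ± 0.23), with limma adjusted p of 0.737 to 0.81. Nos3 read 58.6, 41.1 and 42.4 FPKM in controls A to C, against 46.2, 44.4 and 29.0 for mutants A, B and C, and without mutant C its estimate was -0.04. Flot2 was 0.15 and Prkca -0.17 without that library.

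Clathrin-coated pits, the other route that dynamin-2 serves, held no call either. All 18 genes of that list were tested, 0 were called, 7 had a lower and 11 a higher mean in the mutant, and the median log2 fold change was 0.04. The genes of lowest p were Bin1, which bends membranes (-0.19 ± 0.11), the light chain Cltb (-0.16 ± 0.12) and the adaptor Dab2 (0.25 ± 0.19), with limma adjusted p of 0.717 to 0.787. With single libraries left out, they ranged from -0.25 to -0.10, from -0.23 to -0.07 and from 0.13 to 0.42, in that order.

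The list of receptors, which shares Gpihbp1 with the general capillary markers, held genes that carry cargo across or into endothelium. Means were lower for 6 and higher for 3 of its 9 tested genes, with 0 called and a median log2 fold change of -0.20. Tfrc, the transferrin receptor, was at 1.99 ± 0.161 FPKM (control) and 2.76 ± 0.435 FPKM (mutant) (0.32 ± 0.15). The insulin receptor Insr was at 14.2 ± 0.305 and 11.9 ± 1.57 FPKM (-0.24 ± 0.11). Fcgrt, the neonatal Fc receptor that carries immunoglobulin G, was at 60.8 ± 8.40 and 50.3 ± 3.80 FPKM (-0.26 ± 0.12). Limma adjusted p lay between 0.643 and 0.655 for these 3. With single libraries left out, Tfrc ranged from 0.25 to 0.42, Insr from -0.33 to -0.15 and Fcgrt from -0.33 to -0.15. The groups did not overlap for 4 of the 9 genes, 3 lower and 1 higher, against 13.7% of all tested rows in either direction; no test of the list was made. The lower ones were Insr, Fcgrt and Acvrl1, a receptor of the BMP family that also binds low-density lipoprotein and was named after its values were seen. Acvrl1 lay between 548 and 558 FPKM (control) and between 470 and 496 FPKM (mutant).

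Genes of vesicle docking and sorting numbered 13, all tested, with 0 called and a median log2 fold change of -0.02. Those of lowest p were Stxbp3a (-0.22 ± 0.11), which regulates fusion of vesicles with the plasma membrane, the endosomal tether Eea1 (0.19 ± 0.11) and the recycling GTPase Rab11a (-0.20 ± 0.19), with limma adjusted p of 0.682 to 0.826. With single libraries left out, Rab11a ranged from -0.31 to -0.010, Stxbp3a from -0.26 to -0.13 and Eea1 from 0.13 to 0.25. Of 7 lipid and efflux transporters, 6 were tested and 0 called, and their median was -0.00060. Abcg1, which exports cholesterol, read 24.9, 30.3 and 26.8 FPKM in controls A to C, against 20.1, 18.7 and 23.9 for mutants A, B and C, with no overlap between the groups. Its log2 fold change of -0.38 ± 0.13 did not pass over all rows (limma adjusted p = 0.552). Spns2, which exports sphingosine 1-phosphate, had 0.19 ± 0.13 and the drug exporter Abcg2 0.22 ± 0.17, with limma adjusted p of 0.765 and 0.795. Without mutant C they were 0.08 and 0.13, and Abcg1 was -0.47.

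Markers of further cell types varied between libraries, and their part in the values above was not tested. Of 7 type 2 markers 6 were tested and 0 called, with sums of 63.0 to 189 FPKM (control) and 37.5 to 73.9 FPKM (mutant). The leukocyte sum was 8.75 to 38.4 FPKM (control) and 5.24 to 35.7 FPKM (mutant), with Ptprc at 0.0589 to 1.18 FPKM, 3 of 7 markers tested and 0 called. The erythroid sum was 77.4 to 300.5 FPKM (control) and 31.1 to 86.3 FPKM (mutant), with 0 of 4 tested rows called. Arterial markers (7 tested) summed to 749 to 863 FPKM (control) and 690.0 to 979 FPKM (mutant), lymphatic markers (5 tested) to 280.1 to 681 and 395 to 572 FPKM, and mesothelial markers (2 tested) to 14.2 to 48.0 and 10.9 to 37.8 FPKM, each with 0 called.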

How the data were processed

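RNA of sorted lung endothelial cells was sequenced as paired reads and aligned to mm10, per the labels' protocols. The submitters' processing notes list Cuffdiff, Cufflinks (version 2.2.1), Bowtie2 (version 2.2.3) and TopHat2 (version 2.0.14). The authors deposited FPKM per library, with a log2 fold change and an unadjusted p-value, per the file headers; recomputed, the log2 value equals the average over letters of the log2 ratio. No count model was applied, as the unit keeps no counts.

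Levels were compared as log2(FPKM + 1) with limma 3.58.1 in R 4.3.3 (empirical Bayes with trend), for 11693 rows averaging 1 FPKM or more, with Benjamini-Hochberg adjustment and a threshold of 0.05. This scale understates changes of low genes. The fit was tested on simulated data whose changes were much larger than the estimates of these genes and which held no letter effect. That test does not show how the fit performs at changes of their size. Within-library ratios were compared by exact permutation. Deviations from the group means correlated between same-letter libraries at 0.36, 0.27 and 0.19 for A, B and C. These values were above the threshold of 0.1, so the letters were taken as pairs. Libraries of different letters were not compared in this way, so the values do not establish pairing. The main fit had no block. Relative depth was read from rows under 0.1 FPKM.

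The genes and lists were chosen with earlier results of these data known. Named were the 8 genes, the 3 genes of lowest p in each pathway list, and the 3 rows of most similar profile for Plvap, Cav1 and Mfsd2a. Acvrl1, the general capillary markers, Emp2, Apln, Hopx, Clic5, Ager, Aqp5, Ptprc, Vegfa, Xist and the remaining paralogues were added after their values were seen. Promoter windows and gene positions come from RefSeq on GRCm38.p6, exon overlaps from GENCODE M21. Also tried were different filters, pseudocounts, variance models and scalings, a block for the pair, the label prefix as batch, and fits lacking single libraries or pairs.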

Additional observations from a re-analysis of the deposited data

How the results depend on the processing

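No alternative called any of the 7 tested genes: their adjusted p in limma lay between 0.427 and 1 over 23 alternatives (22 for Pacsin3, which a filter at a mean of 5 FPKM removes). Plvap, Ehd2, Cav2, Pacsin2 and Dnm2 kept their sign in all of them. With each library left out in turn, the estimates (log2) spanned 0.21 to 0.75 for Plvap, -0.081 to 0.42 for Cav1, -0.39 to -0.0033 for Cav2, 0.06 to 0.22 for Ehd2, -0.07 to -0.01 for Pacsin2, -0.12 to 0.29 for Pacsin3 and -0.25 to -0.13 for Dnm2. Cav1 turned negative with quantile normalization (-0.012) and without mutant A (-0.081), and Pacsin3 without control A (-0.12) and without mutant B (-0.11). Plvap was 0.34 with quantile normalization.

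With the pair as a block, the fit gave the same estimates, changed no call of the 7 tested genes or of the pathway genes named, and called 6 rows lower in place of 16. The marker Emp2 lost its call (adjusted p 0.0267 without and 0.0513 with the block). The count of lower rows was 10 with a filter at 5 FPKM, 9 after rescaling to the pan-endothelial markers, 4 in pairs B and C only (where 1 was higher), 6 without pair B and 0 without pair C. It was 5 to 9 with 1 library left out, with 0 to 2 higher. The cause was not tested.

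The ratio of Cav2 to Cav1 kept a lower mutant mean (-0.57 to -0.16), and that of Plvap to Cav1 a higher one (0.13 to 0.69), under 10 alternatives each. With sign changes within pairs, chosen after the data were seen like the rescaling to pan-endothelial markers, the exact p was 0.5 and 0.25. The smallest possible p of that test is 0.25, which any ratio of constant sign over the pairs reaches. The depth is unknown in fragments, which limits Mfsd2a most. With 3 libraries per group the exact tests cannot reach 0.05.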
